A study of Mus musculus with 2 samples.

Results

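Neurofilament and axon genes were followed here in the retina of mouse pups at postnatal day 15. The 8 genes are Nefl, Nefm, Nefh, Ina, Prph, Gap43, Stmn2 and Uchl1, taken by symbol from a table of 23356 gene symbols; all 8 were found, and a gene's level is the sum over its listed transcripts. RNA came from 1 control library and 1 triple mutant library. Both genotypes were homozygous for floxed Dnmt1, Dnmt3a and Dnmt3b, the genes of the DNA methyltransferases; the control was Rx-Cre negative and the mutant Rx-Cre positive. Rx regulatory sequence drives Cre in the retinal lineage, so cells of other origin in the dissected tissue would keep the floxed alleles. By label the control is of strain C57BL/6 and the mutant of strain C57BL/7, and the sources used here do not give the number of animals behind each library. With 1 library per genotype there was no replicate check, and no test between genotypes was made.

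Neurofilaments are the intermediate filaments of neurons. The light, medium and heavy chains (Nefl, Nefm, Nefh) co-assemble, in the central nervous system together with alpha-internexin (Ina), and fill large axons, whose calibre they help to set. Peripherin (Prph) is a related chain best known from peripheral neurons. Gap43 encodes a membrane-bound phosphoprotein of growth cones, Stmn2 a stathmin that binds tubulin in growing and regenerating axons, and Uchl1 an abundant neuronal ubiquitin hydrolase. In the retina, neurofilaments are best known from ganglion cells, whose axons form the optic nerve, and from horizontal cells.

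Levels are given in FPKM (fragments per kilobase of transcript, scaled to library depth), which can be compared between genes because it is scaled to length. The steps between the lowest values placed 1 FPKM at about 48.7 fragments per kb in control and 57.0 in mutant retina. Intervals given after a percentage are 95% intervals made from fragment numbers recovered in this way, and they cover counting error only, not differences between animals. Dnmt1 had 21.7 FPKM in control and 11.6 in mutant retina, Dnmt3a 87.4 and 56.0, and Dnmt3b 1.03 and 0.827. Dnmt1 and Dnmt3a were thus lower in the library labelled mutant and remained present there. Dnmt3b was near 1 FPKM in both libraries. Its log2 ratio after adding 1 FPKM to each level (-0.15) lay within the quartiles of all genes that reach 1 FPKM (-0.16 and 0.15). Retinal identity was plain in both libraries, with the rod arrestin gene Sag at 3931 and 3512 FPKM.

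The promoters of 3 of the genes could be shown, and they are given because the study targeted the enzymes that methylate cytosine in CG pairs. Each is the 250 bases before the transcription start in RefSeq (GRCm38.p6), with CG pairs in capitals: Ina at chr19:47014431-47014680, Prph at chr15:99054924-99055173 and Uchl1 at chr5:66675871-66676120, all on the plus strand. The GENCODE transcripts placed below start 17 bases further on for Ina and 7 for Prph, and 30 bases earlier for Uchl1, so that the last 30 bases shown for Uchl1 lie inside the GENCODE transcript.
Ina: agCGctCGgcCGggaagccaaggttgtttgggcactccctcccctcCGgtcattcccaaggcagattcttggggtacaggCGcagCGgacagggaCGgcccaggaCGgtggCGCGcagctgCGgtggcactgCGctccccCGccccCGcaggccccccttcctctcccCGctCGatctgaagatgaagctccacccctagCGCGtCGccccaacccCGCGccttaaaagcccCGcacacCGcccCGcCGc
Prph: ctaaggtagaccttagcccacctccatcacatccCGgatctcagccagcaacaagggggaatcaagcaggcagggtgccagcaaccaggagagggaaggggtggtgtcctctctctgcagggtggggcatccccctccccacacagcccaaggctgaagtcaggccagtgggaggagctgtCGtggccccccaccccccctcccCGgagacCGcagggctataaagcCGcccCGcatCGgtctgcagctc
Uchl1: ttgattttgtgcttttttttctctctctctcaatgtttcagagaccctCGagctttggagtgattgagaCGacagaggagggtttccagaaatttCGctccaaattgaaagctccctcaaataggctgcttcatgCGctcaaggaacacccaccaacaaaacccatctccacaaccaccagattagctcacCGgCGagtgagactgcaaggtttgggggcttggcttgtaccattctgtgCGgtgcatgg
Ina held 25 CG pairs, more than 89.3% of the 32851 promoters of the table, whose median was 6 and quartiles 2 and 16. Prph and Uchl1 held 7 each. The GC content was 70.8% for Ina, 65.2% for Prph and 48.8% for Uchl1. The letters TATAAA, searched on both strands, were found 31 bases before the start of Prph and in neither of the others; 12.4% of all promoters of this length held them. The letters GGGCGG, also searched on both strands and containing a CG pair, occurred at 2 places in Ina, 1 in Prph and none in Uchl1, and in 32.7% of all promoters. These matches describe the sequence and are no evidence of binding or methylation. Ina and Uchl1, with 25 and 7 CG pairs, stood at 75.6% and 75.1% of their control level in the mutant library, and Prph, with as many pairs as Uchl1, at 121%. A relation between CG pairs and level was not tested, and the promoters of Nefl and Nefm were not among these 3.

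The neurofilament light and medium chain genes stood apart as the most reduced of the 8. Nefl had 365 FPKM in control and 236 in mutant retina, 64.7% of control (63.7 to 65.8). Nefm had 139 and 90.9 FPKM, 65.4% of control (64.0 to 66.8). The percentages of the 2 genes overlapped within counting error. The genes are neighbours on chromosome 14 (GRCm38, GENCODE M21): the Nefl transcript runs from 68083863 to 68089095 on the plus strand with 4 exons, and the Nefm transcript from 68119283 to 68124846 on the minus strand with 3 exons, with 30187 bases between them. A longer annotated Nefm transcript overlaps exons of the GENCODE transcript of Nefl on the opposite strand. Of the 3380 bases of that Nefl transcript, 2001 lie inside the locus the authors counted, and whether the overlap falls there was not checked. The sources used here do not say whether strand was used in counting, so fragments of that overlap cannot be assigned with certainty.

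The heavy chain gene and alpha-internexin were lower by less. Nefh (chromosome 11, 4938754 to 4948064, minus strand, 4 exons) had 67.5 FPKM in control and 52.3 in mutant retina, 77.6% of control (75.7 to 79.6). Ina (chromosome 19, 47014698 to 47025327, plus strand, 3 exons) had 89.4 and 67.6 FPKM, 75.6% (73.4 to 77.9). The intervals of Nefh and Ina overlapped each other and lay above those of Nefl and Nefm, a difference larger than counting error but without a replicate check. The GENCODE transcript of Ina overlaps exons of Nt5c2 on the opposite strand, a nucleotidase gene with 15.5 FPKM in control and 14.1 in mutant retina. Of the 3240 bases of that Ina transcript, 2259 lie inside the locus the authors counted. Whether the overlap falls there was not checked.

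Prph was the only 1 of the 8 genes with a higher level in the mutant library. It had 5.49 FPKM in control and 6.64 in mutant retina, 121% of control (106 to 137), from about 424 and 599 fragments. This is the least precise of the 8 values, and the level of Prph was far below that of the other 4 filament genes. It lies on chromosome 15 (99055181 to 99058973, plus strand), and the transcript NM_001163589, with 9 exons, carried nearly all of its signal, with 5.20 FPKM in control and 6.54 in mutant retina. The other 2 listed transcripts went the opposite way at very low levels: NM_001163588 had 0.245 and 0.102 FPKM, and NM_013639 had 0.0495 in the control and was listed at 0 in the mutant.

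**Figure D1:**
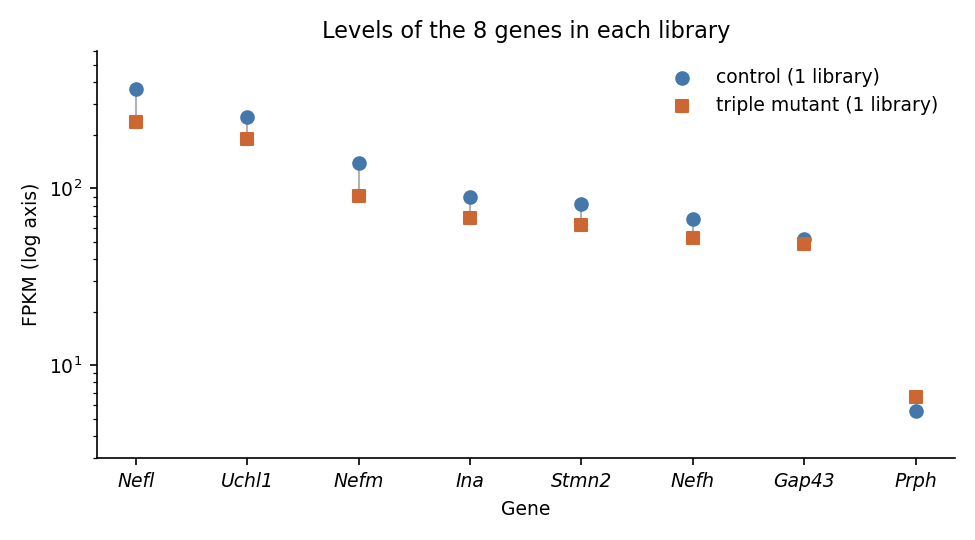
FPKM of each gene (log axis) in the control library (circles) and the triple mutant library (squares), in order of the control level; there is 1 library per genotype, so no error bar is drawn. Nefl is highest at 365 and 236 FPKM, and Prph lowest at 5.49 and 6.64, the single gene whose mutant value lies above its control value.

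Among the axon growth and neuronal enzyme genes, Gap43 was close to its control level and the other 2 were not. Gap43 (chromosome 16, 42248442 to 42340651, minus strand, 3 exons) had 51.8 FPKM in control and 48.8 in mutant retina, 94.3% of control (89.6 to 99.3). Stmn2 (chromosome 3, 8509360 to 8561606, plus strand, 5 exons) had 81.7 and 62.3 FPKM, 76.2% (73.6 to 78.9). Uchl1 (chromosome 5, 66676091 to 66687234, plus strand, 9 exons) had 253 and 190 FPKM, 75.1% (73.2 to 77.1). By their counting intervals the 8 genes formed 4 sets: Nefl with Nefm, then Uchl1, Ina, Stmn2 and Nefh, then Gap43, and last Prph. The GENCODE transcript of Uchl1 overlaps the annotated antisense gene Uchl1os, which has no row of its own in the table used. Whether this overlap falls inside the locus the authors counted was not checked.

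The order of the 8 levels was the same in both libraries, from Nefl through Uchl1, Nefm, Ina, Stmn2, Nefh and Gap43 to Prph. Nefl was the gene of rank 72 among 13280 measured genes in the control and of rank 148 in the mutant, and Uchl1 moved from rank 135 to rank 213. Measured genes are those that reach 1 FPKM in either library. Within the group some proportions held and others did not. The ratio of Nefl to Nefm was 2.62 in control and 2.60 in mutant retina, and that of Uchl1 to Stmn2 was 3.10 and 3.05. The ratio of Nefl to Nefh was 5.40 and 4.51, and that of Nefl to Gap43 was 7.04 and 4.84.

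Summed FPKM of the 5 filament genes was 666 in control and 454 in mutant retina, 68.1% of control. Their make-up shifted slightly toward Nefh and Ina. Nefl made up 54.7% of the sum in control and 52.0% in mutant retina, and Nefm 20.9% and 20.1%. Nefh made up 10.1% and 11.5%, Ina 13.4% and 14.9%, and Prph 0.825% and 1.46%. The light chain was thus the main neurofilament RNA in both libraries.

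**Figure D2:**
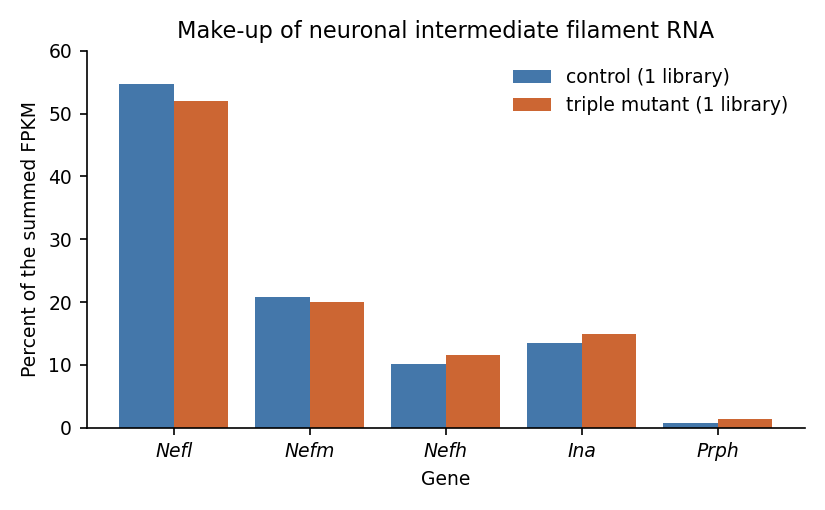
Percent of the summed FPKM of the 5 neuronal intermediate filament genes held by each gene in the control library and the triple mutant library, 1 library each. Nefl holds 54.7% and 52.0%, while Nefh (10.1% and 11.5%) and Ina (13.4% and 14.9%) take a slightly larger part in the mutant.

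The genes were then placed among all measured genes, by the log2 ratio of the mutant to the control level after adding 1 FPKM to each, which understates the ratio of low genes. On this scale the median of all 13280 genes was 0.00, with quartiles of -0.16 and 0.15, and the central 95% ran from -0.63 to 0.82. None of the 8 genes had a log2 ratio of -1 or less, as 0.648% of all measured genes did, and none had a ratio of 1 or more, as 1.84% did. A log2 ratio of -0.5 or less was found for 2 of the 8, Nefl (-0.62) and Nefm (-0.61), and for 4.74% of all measured genes. None of the 8 was at 0.5 or more, against 5.37% of all. The log2 ratio was below 0 for 7 of the 8, against 50% of all genes, and the median of the 8 was -0.39. Among the 7718 genes of at least 10 FPKM, which leave out Prph, 3.76% were at -0.5 or less and 48.2% below 0. Only 2.55% of measured genes had a lower ratio than Nefl and 2.79% a lower ratio than Nefm. For Uchl1 (-0.41), Ina (-0.40), Stmn2 (-0.39) and Nefh (-0.36) that share was between 7.27% and 9.33%, for Gap43 (-0.08) it was 35.6%, and for Prph (0.23) it was 84.6%. The 8 genes were picked with earlier results of these data known, so these counts describe them and do not test them. In the authors' deposited table, 9 of the 10 transcript rows of the 8 genes had been tested and 0 were called significant, against 0.353% of 19556 tested rows.

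**Figure D3:**
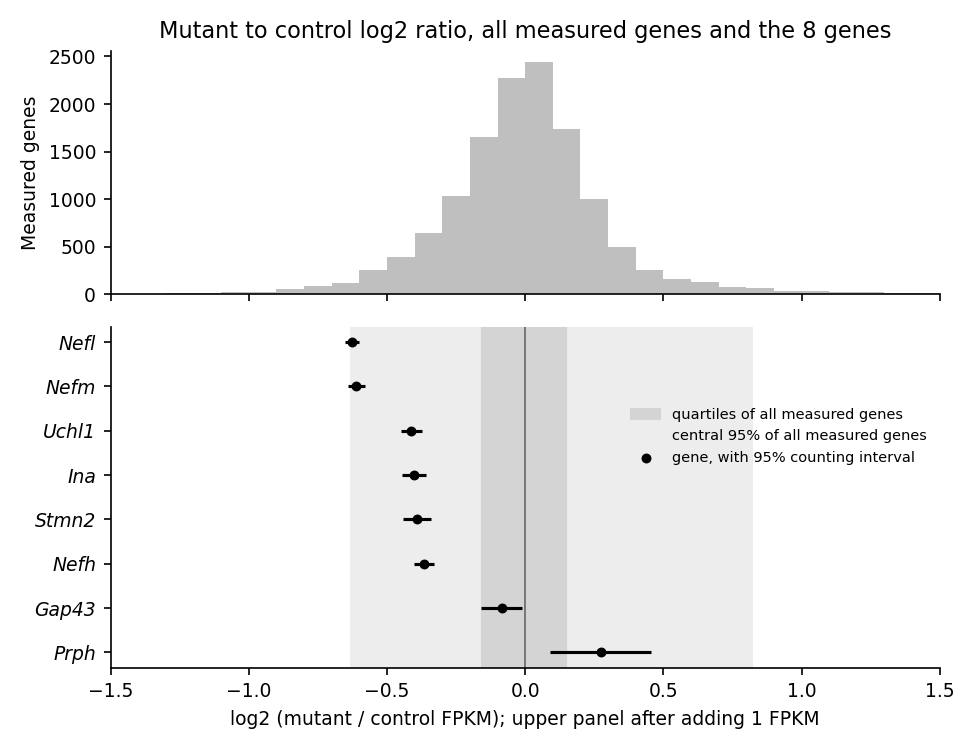
Upper panel, number of measured genes by log2 ratio (mutant over control, with 1 FPKM added to each); lower panel, the log2 ratio of each of the 8 genes without that addition, with its 95% counting interval (1 library per genotype). Nefl and Nefm lie at the lower edge of the central 95% of all genes (-0.63 to 0.82, light band), Gap43 within the quartiles (dark band) and Prph above 0. Both bands are drawn from ratios with 1 FPKM added, unlike the points of the 8 genes.

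Genes that act with neurofilaments in the axon were compared by list, each list being put together by function, with earlier results of these data known. Of all measured genes, 4.74% had a log2 ratio of -0.5 or less, 5.37% of 0.5 or more, and 50% lay below 0. The counts of each list below are to be read beside these shares. Genes of the axon initial segment and the node of Ranvier, where action potentials start and are renewed, had the lowest median of the axon lists: 5 of 12 had a log2 ratio of -0.5 or less, 0 had 0.5 or more, 11 lay below 0, and the median was -0.43. The sodium channel genes Scn1a (12.1 and 6.24 FPKM) and Scn2a1 (10.8 and 6.23) and the potassium channel gene Kcna2 (13.8 and 7.87) had the lowest ratios of this list. Of 10 transport motor genes, 1 was at -0.5 or less, 8 lay below 0 and the median was -0.18. That gene was Kif5a, which encodes a kinesin heavy chain of neurons, with 71.0 FPKM in control and 46.2 in mutant retina; Kif1a had 133 and 99.1, and the dynein chain gene Dync1i1 had 22.9 and 16.7.

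Microtubule genes of the axon were mostly near their control level. Of 15, 1 was at -0.5 or less, 0 at 0.5 or more, 11 lay below 0, and the median was -0.10. Map1a, a microtubule-associated protein gene of mature neurons, had 41.0 and 25.7 FPKM. The tubulin gene Tubb2b had 22.2 and 28.6 FPKM, and Dpysl5, a gene of the collapsin response mediator family, had 34.1 and 27.5. The kinases and linkers of neurofilaments had 1 of 8 at -0.5 or less, the cytolinker gene Dst (25.5 and 16.0 FPKM), with 7 below 0 and a median of -0.17; the linker genes Macf1 (43.0 and 35.3) and Plec (6.99 and 5.65) followed.

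The closest relatives of the 8 genes did not share their lower levels as a list. Of 9 stathmin, GAP43-like and ubiquitin hydrolase relatives, 0 were at -0.5 or less, 0 at 0.5 or more and 4 below 0, with a median of 0.09. Those counts were near the shares of all measured genes (4.74%, 5.37% and 50%). The stathmin gene Stmn3 had 217 FPKM in control and 175 in mutant retina, Marcksl1, a gene related in function to Gap43, had 122 and 145, and Uchl3 had 7.96 and 9.80. Of 9 other measured intermediate filament genes, 2 were at -0.5 or less, 1 was at 0.5 or more and 2 lay below 0, with a median of 0.16. Gfap, the glial filament gene that is high in reactive glia, had 7.72 and 25.6 FPKM. The lens filament gene Bfsp2 had 2.89 and 0.653 FPKM, and Synm, which encodes synemin, had 8.66 and 5.71.

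Adhesion and guidance genes and injury genes of the axon had medians within the quartiles of all genes. Of 11 adhesion and guidance genes, 1 was at -0.5 or less and 6 lay below 0, with a median of -0.13, which was 0.07 among genes of at least 10 FPKM. The adhesion molecule gene L1cam had 25.9 and 17.8 FPKM, the ephrin receptor gene Ephb1 had 8.22 and 11.8, and the semaphorin receptor gene Plxna2 had 23.9 and 32.3. Of 8 measured axon survival and injury genes, 0 were at -0.5 or less and 2 at 0.5 or more, with a median of -0.02, which was -0.17 among genes of at least 10 FPKM. Those 2 were the injury transcription factor gene Atf3 (1.84 and 4.91 FPKM) and Ecel1, a peptidase gene known from injured neurons (0.398 and 1.20). The kinase gene Map3k13 had 9.57 and 6.86 FPKM.

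**Figure D4:**
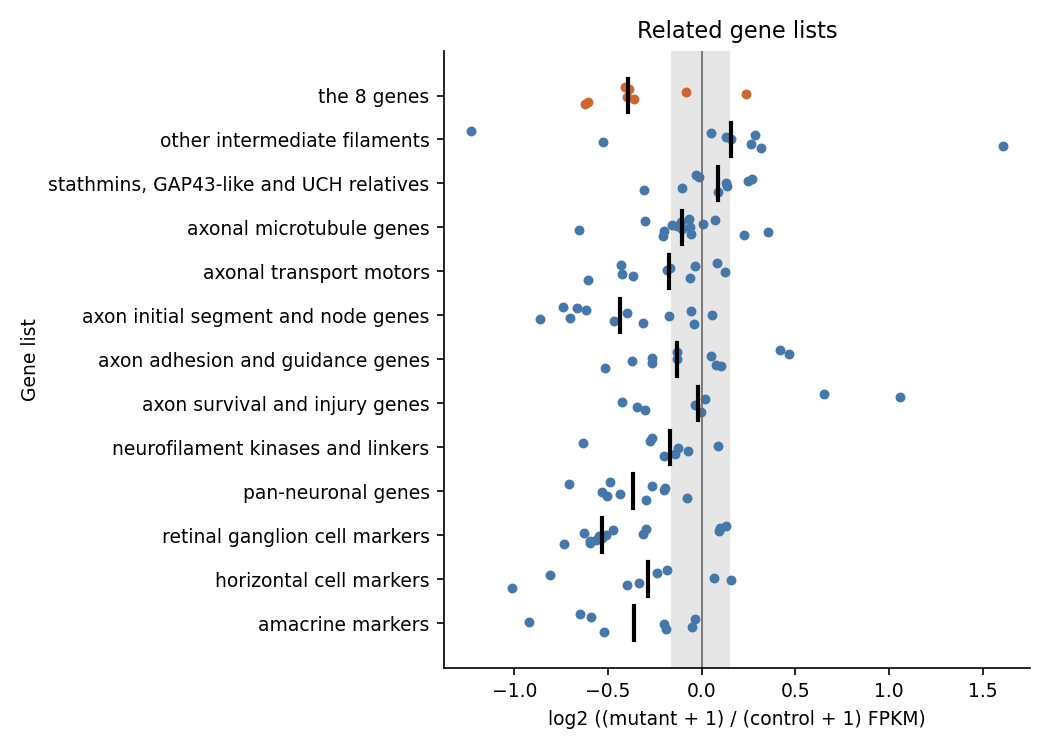
The log2 ratio of mutant to control (after adding 1 FPKM) of each measured gene in the 8 genes and 12 related lists; a point is a gene, the black bar the list's median, and the grey band the quartiles of all measured genes. The medians of the 8 genes (-0.39) and of 7 lists lie below the band, from the ganglion cell markers (-0.53) to the kinases and linkers (-0.17); 4 lists have medians inside it, and that of other intermediate filaments (0.16) lies just above it.

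Markers of ganglion cells were lower too, and so were those of retinal neurons less known for neurofilaments, such as amacrine cells (given below) and cones. The 4 cone markers had log2 ratios from -1.95 to -0.93, with a median of -1.03. The 4 measured rod markers ran from -0.41 to 0.65, with a median of -0.10. Of 15 ganglion cell markers, 9 were at -0.5 or less, 0 at 0.5 or more and 12 below 0, with a median of -0.53. The glutamate transporter gene Slc17a6 had 27.7 FPKM in control and 16.2 in mutant retina, Nrn1, which encodes neuritin, had 51.6 and 33.1, and the transcription factor gene Pou4f2 had 5.61 and 3.36. Nefl and Nefm had ratios within the range of the ganglion cell markers (-0.74 to 0.13) and below their median, and Nefh, Ina, Stmn2, Uchl1, Gap43 and Prph lay above that median. With a pseudocount of 5 FPKM, which shrinks the ratios of low markers most, the median was -0.34, and Uchl1 (-0.40), Ina (-0.38) and Stmn2 (-0.37) then lay below it. The median was -0.55 with a pseudocount of 0.1 FPKM and -0.54 among genes of at least 10 FPKM. In both of these settings only Nefl and Nefm lay below it. In a bulk sample, fewer cells of a type and less RNA per cell cannot be told apart.

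Of 8 horizontal cell markers, 2 were at -0.5 or less and 6 below 0, with a median of -0.29. The calcium buffer gene Calb1 had 42.5 and 20.5 FPKM, the gap junction gene Gja10 had 3.48 and 1.55, and the transcription factor gene Lhx1 had 4.54 and 3.20. Of 8 amacrine markers, 4 were at -0.5 or less and 8 below 0, with a median of -0.36; Chat, the acetylcholine synthesis gene, had 7.41 and 3.44 FPKM, its vesicular transporter gene Slc18a3 had 6.44 and 3.74, and Calb2 had 387 and 257. Of 10 genes used by neurons in general, 3 were at -0.5 or less and 10 below 0, with a median of -0.37. The RNA-binding protein gene Elavl2 had 9.91 and 6.54 FPKM, and the neuronal enolase gene Eno2 had 257 and 180. With a limit of 10 FPKM the amacrine median was -0.20 and the general neuronal median -0.30, beside -0.40 for the 7 neurofilament and axon genes left by that limit.

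Markers of other tissues and cells also differed between the libraries. Of all measured genes, 0.648% were at -1 or less and 1.84% at 1 or more. The 6 lens markers summed to 137 FPKM in control and 0.968 in mutant retina, with Crygs and Lim2 under 0.1 FPKM in the mutant and Lim2 listed at 0 there; 4 of the 6 were measured and all 4 were at -1 or less. The 6 pigment epithelium markers summed to 53.1 and 4.14 FPKM, and 6 of 6 were at -1 or less. The 7 microglia markers summed to 21.2 and 97.2 FPKM, and 7 of 7 were at 1 or more. Of 8 astrocyte and optic nerve glia markers, 4 were measured, 1 of them was at 0.5 or more, and the sums were 23.7 and 31.4 FPKM; the oligodendrocyte genes Olig2 (listed at 0 in both libraries) and Mog (0.133 and 0.171) were at or near 0. The 8 neurofilament and axon genes made up 0.293% of all FPKM in control and 0.208% in mutant retina, and the lens markers 0.0380% and 0.000266%. The part of these tissues and cells in the levels of the 8 genes was not tested.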

How the data were processed

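RNA of dissected retinas was sequenced in 1 control and 1 triple mutant library. The submitters' processing notes name TopHat2 2.0.8, Cuffdiff 2.1.1 and the build mm10; the sources used here give neither strandedness nor the annotation. The authors deposited FPKM for each RefSeq transcript in a table with symbols (30608 rows) and a second table without (33362 rows), per the file headers. Each row further carries the authors' log2 fold change, test score, p-value and q-value, per the file headers; only the significance call was used.

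Gene FPKM was summed over transcripts. Genes were kept if 1 or more rows had status OK and no row was marked as failed or as holding too much data (15318 of 23356 symbols); 13280 with at least 1 FPKM in either library counted as measured. Depth was read from values worth up to 6 fragments in single-transcript genes of at least 3000 bases whose span matched GENCODE M21 within 2 bases: 84 of 84 control values and 81 of 82 mutant values were whole multiples of 1 step within 10% of a step, at an assumed fragment length of 175 bases that was chosen for the closest fit. A ratio's 95% interval is an exact binomial interval on such fragments, using the exonic length inside the authors' locus. GENCODE and RefSeq coordinates are on GRCm38, the assembly of mm10. Of the 8 genes, 3 had a promoter in the RefSeq table. Samples were grouped by their genotype labels. Named genes are the 8, the 3 targeted genes and, for the lists of axon genes and neurons, the 3 measured genes with the largest log2 ratio either way (the rule names 3 in the other lists too, given here by their sums or medians alone); Sag, Nt5c2, Uchl1os, Crygs, Lim2, Olig2 and Mog are named outside this rule. A gene that the rule names is not reported here. No gene was sought for a like pattern, since 2 libraries give none. The 8 genes and the 19 related lists were chosen with earlier results of these data known. Of the lists, the 4 measured rod markers had log2 ratios from -0.41 to 0.65 and the 4 cone markers from -1.95 to -0.93 (median of all 8, -0.67); the median was for Mueller glia markers 0.29 and for endothelial and pericyte markers -0.20. Calculations used Python 3.11.15 with pandas 2.3.3, numpy 2.4.6 and scipy 1.17.1, and were tested on simulated data. Alternatives were the pseudocount, the filter on low values, the second table, centring, equal FPKM sums and the highest transcript alone.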

Additional observations from a re-analysis of the deposited data

How the results depend on the processing

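None of the 8 genes changed direction under the 6 alternatives run for each: pseudocounts of 0.1 and 5 FPKM, the second deposited table, centring on the median of all genes, equal FPKM sums and the highest transcript alone. Most of these could hardly change a direction. A pseudocount added to both values keeps their order, and a gene with 1 listed transcript has the same value as its highest transcript. Centring and equal sums barely moved the ratios (Nefl -0.6249 and -0.6253, against -0.6249). The second table holds the same 2 libraries, so it is no replicate check. The log2 ratio ran from -0.63 to -0.56 for Nefl, from -0.61 to -0.55 for Nefm, from -0.37 to -0.30 for Nefh, from -0.40 to -0.34 for Ina, from 0.15 to 0.29 for Prph, from -0.08 to -0.02 for Gap43, from -0.39 to -0.33 for Stmn2 and from -0.41 to -0.35 for Uchl1. The median of the 8, -0.39, moved to -0.33 in the second table, where the median of all genes was 0.05 and 40.1% of genes lay below 0. Nefl and Nefm remained the 2 genes at -0.5 or less under each of the alternatives run on that count. The number of all genes at -0.5 or less was 630, against 952 at a pseudocount of 0.1, 220 at 5 and 290 among genes of at least 10 FPKM, a limit that leaves out Prph; at -1 or less it was 86, against 180, 33 and 42. Of 19 list medians, 2 changed sign: adhesion and guidance genes among genes of at least 10 FPKM (0.07), and survival and injury genes in the second table (from -0.02 to 0.03), by no more than the shift of all genes there. The ganglion cell median moved from -0.53 to -0.34 at a pseudocount of 5, and the amacrine median from -0.36 to -0.20 among genes of at least 10 FPKM. No paired analysis was possible because each genotype has 1 library. For the same reason no library could be left out. The fragments behind each gene limit Prph most.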
